A study of Mus musculus with 6 samples.

Results

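The Gimap genes encode GTPases of the immunity-associated proteins, a family of GTP-binding proteins that sit together in 1 stretch of mouse chromosome 6. The family was taken as every gene whose symbol is Gimap followed by a digit, among probe sets assigned to exactly 1 gene. This gave 8 members, Gimap1 and Gimap3 to Gimap9, of 19938 named genes in all. Each member had 1 probe set, so no choice between probe sets was needed. The family was picked with the difference between the sample groups already known, Gimap4 being among the genes with the largest rise. The members' values and calls are therefore given as a description, with no p-value, and support nothing.

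Gimap proteins carry an AIG1-type GTP-binding domain related to that of septins and dynamins. Several are anchored in intracellular membranes, and they are known mainly for keeping lymphocytes alive. In mice, loss of Gimap5 depletes T cells, NK cells and haematopoietic progenitors, and loss of Gimap1 removes mature T and B cells. Gimap3 was cloned, under the name Ian4, as a gene induced by BCR-ABL in mouse haematopoietic cells.

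The cells were mouse pre-B cells that BCR-ABL1, a constitutively active tyrosine kinase found in Philadelphia chromosome-positive (Ph+) lymphoblastic leukaemia, had transformed. All 6 samples came from 129SvEv x C57BL/6J mice of 5 weeks with Sox4fl/fl alleles, and RNA was taken 24 h after 4OHT (4-hydroxytamoxifen). In 3 samples the cells were transduced with Cre-ERT2, a recombinase that 4OHT activates and that deletes floxed Sox4, and in 3 samples with ERT2, the receptor part without Cre. Sox4 encodes a transcription factor of lymphoid progenitors. No group had Cre-ERT2 in cells with unfloxed Sox4, and no group is labelled as left without 4OHT. Effects of losing Sox4 and effects of Cre itself therefore cannot be told apart. Whether replicates were separate cultures is not in the labels, so the p-values rest on a spread between samples that may be technical.

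Each sample was hybridised to 1 Affymetrix array, which gives an intensity per probe set, and differences are of log2(intensity + 1), Cre-ERT2 minus ERT2. Median intensity lay between 273 and 279 on the 6 arrays. Sox4 read 599, 541 and 499 in the Cre-ERT2 samples and 1459, 1372 and 1237 in the ERT2 samples, a log2 difference of -1.31 (SE 0.091, limma adjusted p = 0.000434). The 12 measured pre-B and B-lineage markers averaged from 235 (Rag2) to 19026 (Igll1) in Cre-ERT2 samples and from 596 (Rag2) to 18846 (Igll1) in ERT2 samples. The brightest were Igll1, a surrogate light chain of pre-B cells, and Cd79a and Cd79b, the signalling chains of the B-cell receptor, whereas Rag2, a recombinase subunit, lay below the median intensity of the arrays in Cre-ERT2 samples. The array that differed most from its group was ERT2 replicate 2, with an SD of log2 differences of 0.231 and 0.242 to the other ERT2 arrays, which differed from each other by 0.184.

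In the gene table (RefSeq, assembly GRCm38.p6) the members run in the order Gimap8, Gimap9, Gimap4, Gimap6, Gimap7, Gimap1, Gimap5 and Gimap3. Gimap6 and Gimap3 lie on the minus strand and the other 6 on the plus strand. No other protein-coding gene lies among them. The promoters of 4 members are printed because these genes span the range of the family: Gimap4 had the largest rise, Gimap7 a small positive difference, Gimap1 a difference near 0, and Gimap5 the lowest value of the 8. Each stretch is 270 bases, 250 before the annotated start and 20 from it on, written 5′ to 3′ on the gene's strand with RefSeq GRCm38.p6 coordinates. Capitals mark TGTGGT, the core bound by Runx factors, and AACAAT, a core bound by Sox factors, here both on the reverse strand as ACCACA and ATTGTT.
Gimap4 (chr6:48684328-48684597, plus strand): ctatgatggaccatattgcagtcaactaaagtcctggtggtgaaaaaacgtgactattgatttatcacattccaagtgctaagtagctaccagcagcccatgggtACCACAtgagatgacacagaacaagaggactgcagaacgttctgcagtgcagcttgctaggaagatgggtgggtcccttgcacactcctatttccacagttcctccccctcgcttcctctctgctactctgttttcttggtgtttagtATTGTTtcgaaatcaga
Gimap7 (chr6:48718371-48718640, plus strand): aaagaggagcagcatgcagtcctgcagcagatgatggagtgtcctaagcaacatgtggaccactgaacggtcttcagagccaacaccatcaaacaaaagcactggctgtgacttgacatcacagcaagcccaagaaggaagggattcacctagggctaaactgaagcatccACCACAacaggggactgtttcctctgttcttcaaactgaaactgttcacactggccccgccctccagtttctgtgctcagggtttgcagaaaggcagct
Gimap1 (chr6:48738797-48739066, plus strand): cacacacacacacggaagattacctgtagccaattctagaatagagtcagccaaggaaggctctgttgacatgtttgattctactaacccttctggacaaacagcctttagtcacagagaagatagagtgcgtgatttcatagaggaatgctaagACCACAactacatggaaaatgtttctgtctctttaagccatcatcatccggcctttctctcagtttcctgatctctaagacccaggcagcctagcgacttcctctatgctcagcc
Gimap5 (chr6:48745947-48746216, plus strand): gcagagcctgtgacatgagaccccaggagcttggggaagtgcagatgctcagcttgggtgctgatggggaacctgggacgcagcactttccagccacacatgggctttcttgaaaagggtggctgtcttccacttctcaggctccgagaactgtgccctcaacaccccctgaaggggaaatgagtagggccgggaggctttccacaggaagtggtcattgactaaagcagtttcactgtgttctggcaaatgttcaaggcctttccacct

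Across the 9 promoter windows that RefSeq lists for the 8 members (Gimap8 has 2), each of 300 bases, 4 motifs were searched on both strands. AACAAAG, a sequence bound by Sox4 and by TCF and LEF factors, was in 0 of 9 windows, and 5.85% of all 32851 windows hold it. AACAAT was in 1 of 9, that of Gimap4, against 10.7% of all windows. The match begins 3 bases after the first transcribed base. TGTGGT was in 3 of 9, those of Gimap4, Gimap7 and Gimap1, against 16.8% of all windows. CAGGTG, an E-box bound by E proteins, was in 1 of 9, that of Gimap9, against 20.2%. The 3 genes with TGTGGT include the gene with the largest rise and Gimap1, whose difference was near 0. A match is a description of letters and not evidence of binding. The member windows held a median of 4 CG dinucleotides, from 2 to 8, against a median of 7 over all windows.

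Of the 8 members 5 were higher in the Cre-ERT2 cells at an adjusted p under 0.05 in limma's fit of all probe sets, and 0 were lower (1 at an unadjusted p under 0.05). Over all named genes, 4.38% were higher and 3.72% lower. All 3 Cre-ERT2 arrays lay above all 3 ERT2 arrays for 6 members, a pattern seen in 17.5% of all genes. They lay below for 1 member, a pattern seen in 10.8%. The median log2 difference of the members was 0.48, and that of all genes was 0.02. Because the family was chosen from this same contrast, nothing is read from these shares. Brightness depends on the probes, so intensities are compared between groups for each gene and not between genes. In RNA of whole cell populations, a change in the share of cells that express a gene and a change in RNA per cell cannot be told apart.

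Gimap4, a GTPase studied in T-cell maturation and death, differed more than any other member. Its intensities were 2883, 3104 and 2933 in the Cre-ERT2 samples, against 478, 526 and 447 in the ERT2 samples. The groups stood far apart: the lowest Cre-ERT2 array was 5.48 times the highest ERT2 array. The means were 2973 ± 116 in Cre-ERT2 cells and 484 ± 40.0 in ERT2 cells (SD, n = 3 each), a ratio of 6.15 and a log2 difference of 2.62 (SE 0.073). Only 3 of the 19938 named genes had a larger log2 difference. Without any 1 of the 6 arrays, and in the other settings tried, the difference lay between 2.56 and 2.68.

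**Figure D1:**
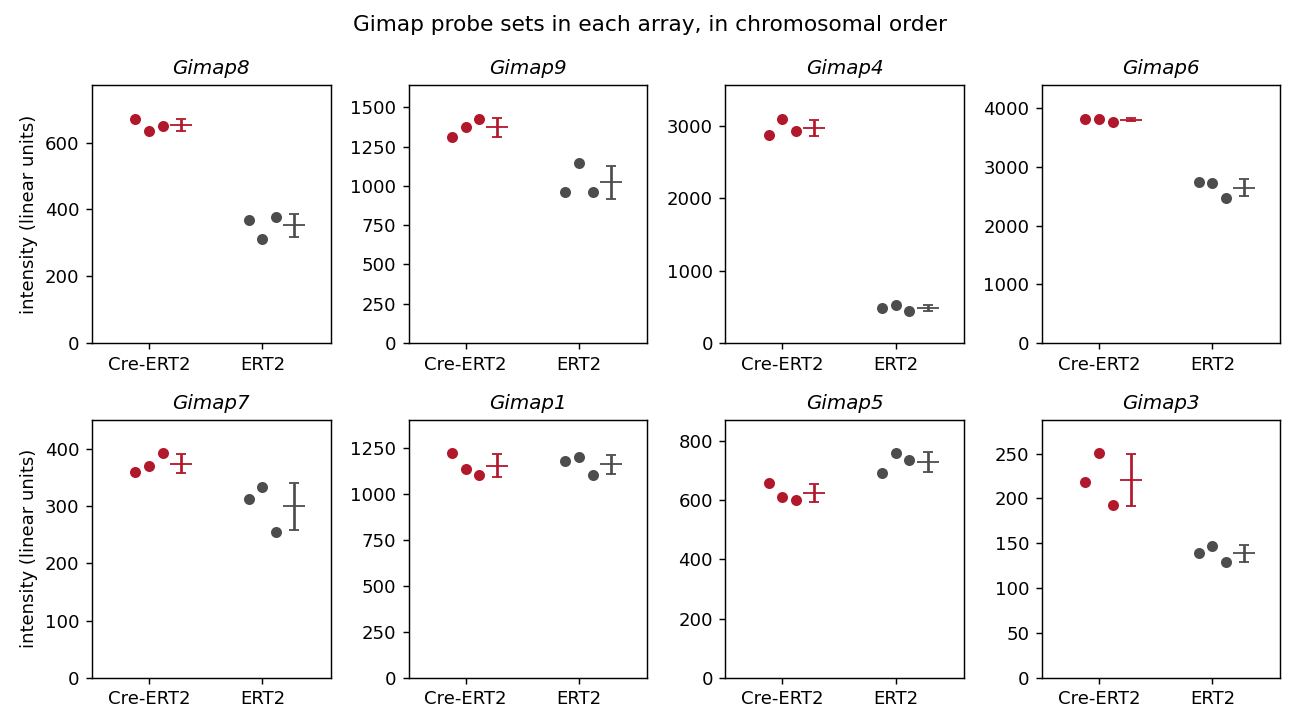
Intensity (linear units, vertical axes from 0) of the 8 Gimap probe sets in the 3 Cre-ERT2 and 3 ERT2 arrays; points are arrays, replicates 1 to 3 from left to right, and the bar beside them is the mean with its SD. Gimap4 was 2883 to 3104 in Cre-ERT2 arrays and 447 to 526 in ERT2 arrays, whereas the groups overlapped for Gimap1.

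Gimap3, Gimap5 and Gimap1, the members most studied for lymphocyte survival, did not move together. Gimap3, a close relative of Gimap5 that RefSeq also lists under the older names Ian4 and Gimap5, had intensities of 218, 250 and 193 in Cre-ERT2 samples and 139, 147 and 129 in ERT2 samples. It rose, with no overlap between the groups, at a log2 difference of 0.66 (SE 0.104). The Gimap3 probe set lay below the median intensity of every array, and its 3 Cre-ERT2 values had the widest log2 spread of the family in that group (SD 0.187).

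Gimap5 read 658, 611 and 602 in Cre-ERT2 samples and 692, 758 and 736 in ERT2 samples. All Cre-ERT2 values were the lower ones, but the closest arrays of the groups, 658 and 692, lay near each other. The log2 difference was -0.22 (SE 0.061), which did not pass the threshold among all probe sets and did pass it in 4 of the other settings. Gimap1 read 1223, 1140 and 1104 in Cre-ERT2 samples and 1182, 1203 and 1102 in ERT2 samples. The groups overlapped fully and the log2 difference was -0.01 (SE 0.062). Its sign turned positive when Cre-ERT2 replicate 2 or 3, or ERT2 replicate 1 or 2, was left out, and over all settings it lay between -0.05 and 0.02. Whether probes of one member also bind transcripts of its close relatives was not examined here.

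Gimap6, which binds an autophagy protein of the ATG8 family, had intensities of 3820, 3822 and 3767 in Cre-ERT2 samples and 2734, 2726 and 2473 in ERT2 samples. The Cre-ERT2 values lay within a narrow band (log2 SD 0.012) above all ERT2 values (log2 SD 0.082). Its log2 difference was 0.53 (SE 0.056), a ratio of means of 1.44. Gimap7, whose human counterpart stimulates GTP hydrolysis by another family member, read 360, 371 and 393 in Cre-ERT2 samples and 312, 334 and 255 in ERT2 samples. The groups did not overlap, yet the lowest Cre-ERT2 value was only 1.08 times the highest ERT2 value. Its log2 difference of 0.33 (SE 0.105) did not pass the threshold, and passed it with estimated array weights and when genes rather than probe sets were tested.

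Gimap8, the member at one end of the cluster, read 672, 636 and 649 in Cre-ERT2 samples and 367, 312 and 377 in ERT2 samples. Every Cre-ERT2 value was at least 1.69 times every ERT2 value. Its log2 difference of 0.89 (SE 0.081) was the next after that of Gimap4. Gimap9, its neighbour, read 1313, 1376 and 1429 in Cre-ERT2 samples and 960, 1146 and 961 in ERT2 samples. It was higher by 0.43 on the log2 scale (SE 0.083), and ERT2 replicate 2 came closest to the Cre-ERT2 values.

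The calls of Gimap4, Gimap8 and Gimap6 held without any 1 of the 6 arrays. Gimap9 did not pass when any array but ERT2 replicate 2 was left out, and Gimap3 did not pass when Cre-ERT2 replicate 1, ERT2 replicate 1 or ERT2 replicate 3 was. The number of members called higher was therefore 3 without Cre-ERT2 replicate 1, ERT2 replicate 1 or ERT2 replicate 3. With Cre-ERT2 replicate 2 or 3 left out it was 4. No member changed the sign of its difference without an array, apart from Gimap1. The family was chosen from this same contrast, so these calls describe dependence on single arrays and support nothing.

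The differences were uneven along the chromosome. In order, they were 0.89 for Gimap8, 0.43 for Gimap9, 2.62 for Gimap4, 0.53 for Gimap6 and 0.33 for Gimap7. The next in order were -0.01 for Gimap1, -0.22 for Gimap5 and 0.66 for Gimap3. The first 5 genes were thus positive, and 2 of the last 3 were not, though Gimap1 lay near 0. A positive difference was seen in 11822 of all 19938 named genes. Gimap4 stands between Gimap9 and Gimap6, and its log2 difference was far above theirs. Both genes on the minus strand, Gimap6 and Gimap3, were among those that passed the threshold.

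Among the 10 measured genes on each side of the cluster, 3 rose and 1 fell (limma, adjusted p under 0.05; 4.38% and 3.72% of all genes). Gm5111, on the side of Gimap8, read 305, 316 and 344 in Cre-ERT2 samples and 115, 128 and 124 in ERT2 samples. It rose by 1.39 on the log2 scale (SE 0.069, limma adjusted p = 0.000124). Repin1, a zinc-finger DNA-binding protein on the same side, rose by 0.56 (SE 0.069, limma adjusted p = 0.00506), and Lrrc61, a leucine-rich repeat gene, rose by 0.31 (SE 0.053, limma adjusted p = 0.0203).

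Tmem176b, a membrane protein of myeloid and lymphoid cells and the first gene past Gimap3, went the other way. It read 451, 463 and 435 in Cre-ERT2 samples and 673, 678 and 616 in ERT2 samples, and fell by 0.54 on the log2 scale (SE 0.058, limma adjusted p = 0.00275). Tmem176a, its relative next to it, was named after its values were seen: its difference was -0.21 (SE 0.047, limma adjusted p = 0.0587), past the threshold in 5 of the other settings. The nearest gene on the side of Gimap8, AI854703, had a difference of 0.05. Lrrc61 lost its call without any array other than ERT2 replicate 2 (limma adjusted p from 0.0523 to 0.103).

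**Figure D2:**
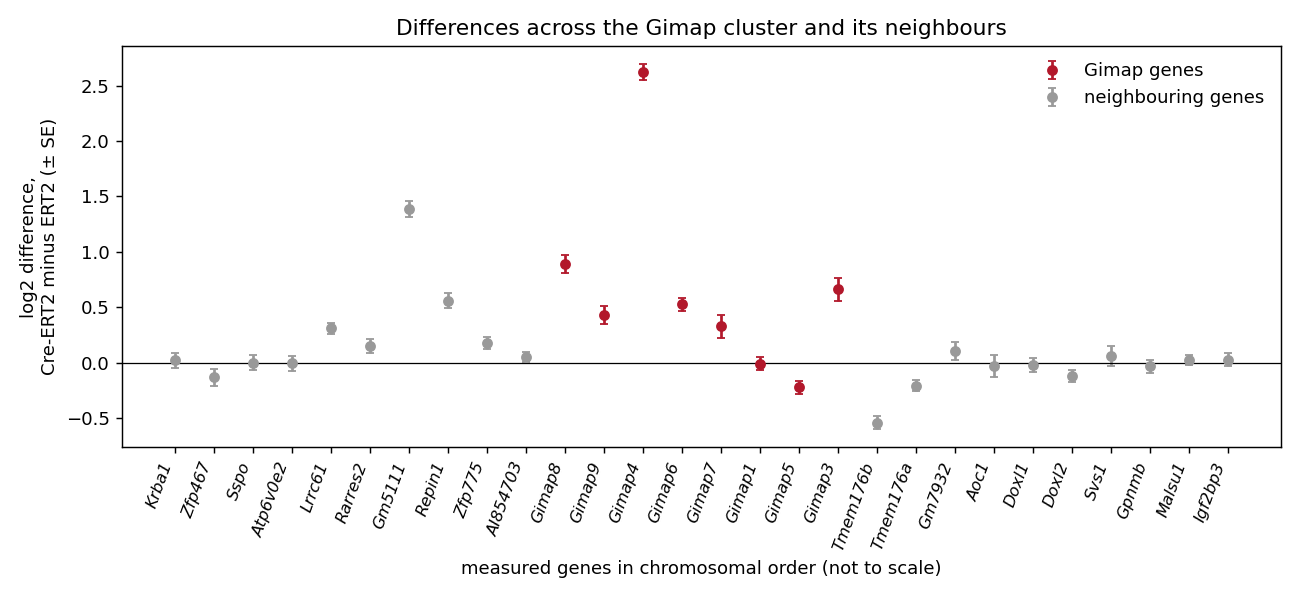
Log2 difference, Cre-ERT2 minus ERT2, with its limma SE (vertical axis) for the 8 Gimap genes and the 10 measured genes on each side, in chromosomal order and not to scale. Gimap4 (2.62) and Gm5111 (1.39) stand highest and Tmem176b (-0.54) lowest.

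Genes of families and settings tied to these GTPases were described from lists, whose members are not each a reported partner. Gimap proteins have been reported to bind members of the Bcl-2 family, which control mitochondrial death. Of 8 genes of this family 2 rose and 1 fell (4.38% and 3.72% of all genes), with a median log2 difference of 0.15. Bcl2l1, which encodes BCL-XL, fell by 0.79 (SE 0.055, limma adjusted p = 0.000444). The BCL-W gene Bcl2l2 rose by 0.46 (SE 0.054, limma adjusted p = 0.00411), and Bcl2, the founding survival gene, rose by 0.25 (SE 0.050, limma adjusted p = 0.0358). Bcl2 lost its call without any array other than ERT2 replicate 2 (limma adjusted p from 0.0945 to 0.148).

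None of 8 genes of ATG8 and related autophagy proteins passed limma's threshold (1 at an unadjusted p under 0.05), and their median difference was -0.00. Gabarapl2, the ATG8 protein that Gimap6 binds, averaged 4915 in Cre-ERT2 samples and 4923 in ERT2 samples. Of 10 interferon-inducible GTPases, another group of immune GTP-binding proteins, 0 passed (6 at an unadjusted p under 0.05, 3 in each direction). Their log2 differences lay between -0.35 and 0.48, and up to 2 passed in each direction in other settings. Over all 19938 named genes, 4006 had an unadjusted p under 0.05, 2424 of them higher and 1582 lower.

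Gimap genes are known to be highly expressed in quiescent, recirculating lymphocytes. Of 10 measured genes of lymphocyte quiescence and homing, 1 rose and 5 fell (4.38% and 3.72% of all genes), with a median of -0.29. Il7r, the interleukin 7 receptor, fell by 0.93 (SE 0.045, limma adjusted p = 0.000118), Slfn2, which maintains quiescence, fell by 0.51 (SE 0.043, limma adjusted p = 0.00097), and Lef1, a lymphoid transcription factor, fell by 0.49 (SE 0.050, limma adjusted p = 0.0021). Ccr7, a homing receptor named after its values were seen, rose by 0.34 (SE 0.059, limma adjusted p = 0.0215). It lost this call without any 1 of the Cre-ERT2 replicates or without ERT2 replicate 2 (limma adjusted p from 0.0502 to 0.0903). Of 10 Notch pathway genes and targets, 1 rose and 0 fell (0 fell at an unadjusted p under 0.05). The riser was Notch1, the receptor of T-lineage commitment, by 0.47 (SE 0.059, limma adjusted p = 0.00533).

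Gimap genes are abundant in T cells and NK cells, so markers of these cells are given beside the members. Of 14 T-cell markers 2 rose and 1 fell (4.38% and 3.72% of all genes), with a median of -0.00. Their summed intensity was 3643 to 3877 in Cre-ERT2 arrays and 3307 to 3533 in ERT2 arrays. The risers were Cd5 (0.56, SE 0.068, limma adjusted p = 0.0048), a receptor of T cells and some B cells, and Lat (0.47, SE 0.054, limma adjusted p = 0.00369), an adaptor of antigen receptor signalling. Zap70, a kinase of the T-cell receptor, fell by 0.46 (SE 0.070, limma adjusted p = 0.0115) and did not pass when Cre-ERT2 replicate 1 or 2 was left out (limma adjusted p of 0.0512 and 0.0531). Over the whole list the Cre-ERT2 arrays lay all above the ERT2 arrays for 4 markers (Cd5, Lat, Cd28 and Cd8b1). They lay all below for 3 (Zap70, Cd3g and Cd247) and overlapped for 7. Of all genes, 17.5% had the first pattern and 10.8% the second. Cd28, a co-stimulatory receptor, had a difference of 0.13, Cd8b1, a co-receptor chain, 0.12, and the receptor chain Cd3g -0.21, none past the threshold. The 11 markers that did not pass summed to 2023 to 2194 in Cre-ERT2 arrays and 2030 to 2169 in ERT2 arrays. This sum was chosen after seeing the data. All of them but Bcl11b and Thy1 averaged below the median intensity of every array in both groups.

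Of 10 NK-cell markers 0 passed limma's threshold (1 lower at an unadjusted p under 0.05). Their summed intensity was 960 to 1028 in Cre-ERT2 arrays and 990 to 1033 in ERT2 arrays. The highest mean among these markers was 234, below the median intensity of every array, so the sums are of dim probe sets. Of 10 myeloid markers 1 rose and 1 fell (4.38% and 3.72% of all genes). The myeloid markers summed to 2889 to 3101 in Cre-ERT2 arrays and 2457 to 2575 in ERT2 arrays. Without Lyz2 the other 9 summed to 2070 to 2119 in Cre-ERT2 arrays and 2092 to 2238 in ERT2 arrays, a sum chosen after seeing the data. Lyz2, a lysozyme, rose by 1.40 (SE 0.108, limma adjusted p = 0.000654), and Itgam, an integrin chain, fell by 0.49 (SE 0.076, limma adjusted p = 0.0129). Itgam did not pass with Cre-ERT2 replicate 2 or ERT2 replicate 1 left out (limma adjusted p of 0.0558 and 0.0574). Of 9 stromal markers 0 passed (0 at an unadjusted p under 0.05), with summed intensities of 2170 to 2356 in Cre-ERT2 arrays and 2047 to 2346 in ERT2 arrays. The part of Cd5, Lat and Lyz2, which carried the higher T-cell and myeloid sums, in the Gimap differences was not tested.

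Markers of the B lineage moved in both directions. Of 12 pre-B and B-lineage markers 2 rose and 2 fell (4.38% and 3.72% of all genes), with a median of -0.05. The 3 with the smallest p were Rag2 (-1.35, SE 0.077, limma adjusted p = 0.000214), a recombinase subunit, Dntt (1.33, SE 0.091, limma adjusted p = 0.000412), a terminal transferase, and Vpreb2 (0.49, SE 0.052, limma adjusted p = 0.0027), a surrogate light chain gene. The 12 markers summed to 82037 to 84086 in Cre-ERT2 arrays and 84198 to 84537 in ERT2 arrays. Bright genes weigh most in these sums: Igll1 averaged 19026 and Rag2 235 in Cre-ERT2 samples. Of 9 mature B-cell markers 0 rose (0 at an unadjusted p under 0.05) and 1 fell, Cd22, an inhibitory co-receptor (-0.41, SE 0.053, limma adjusted p = 0.00628). The 9 markers summed to 9868 to 10137 in Cre-ERT2 arrays and 9680 to 10266 in ERT2 arrays. The dimmest, Ms4a1, which encodes CD20 of mature B cells, averaged 95.5 in Cre-ERT2 and 86.0 in ERT2 samples. The brightest, Cd37, averaged 7323 in Cre-ERT2 and 7014 in ERT2 samples and made up most of the sum of the mature markers.

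**Figure D3:**
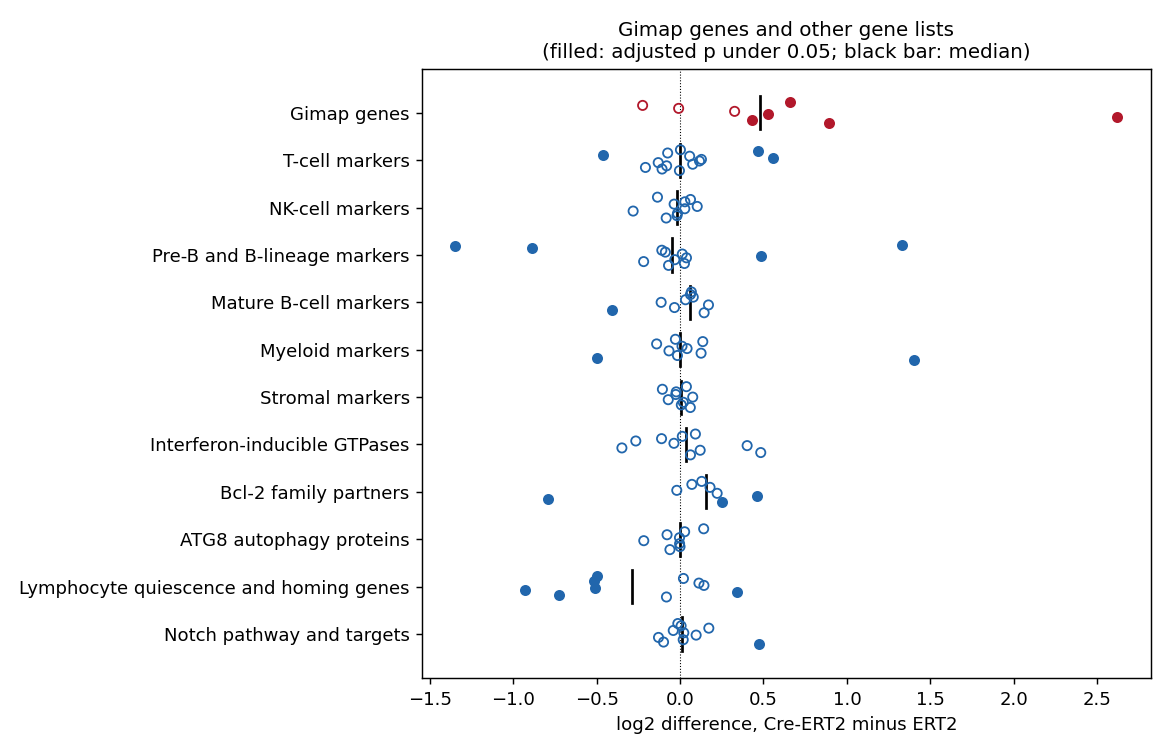
Log2 difference, Cre-ERT2 minus ERT2 (horizontal axis), of the 8 Gimap genes and of the measured members of 11 other gene lists, 1 point per gene; filled points had an adjusted p under 0.05 in limma's fit of all probe sets, and the black bar is the list's median. The Gimap median was 0.48, in a family chosen from this same contrast. That of the lymphocyte quiescence and homing genes was -0.29, and those of the other lists lay between -0.05 and 0.15.

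The 5 genes outside the family whose values followed those of Gimap4 most closely over the 6 arrays were Tm7sf3, Galnt14, Rassf4, Zfp182 and Jchain, each with a Pearson correlation above that of any other member of the family (0.999 or more, against 0.99 for Gimap6 and 0.97 for Gimap8). The 6 arrays fall into 2 groups, so these correlations mostly restate the difference between the groups and are given as a description. Jchain, which joins IgM and IgA polymers, read 1676, 1821 and 1737 in Cre-ERT2 samples and 409, 427 and 348 in ERT2 samples. Tm7sf3, which encodes a membrane protein, read 400, 411 and 418 in Cre-ERT2 samples and 167, 174 and 161 in ERT2 samples. In both genes, as in Gimap4, the groups did not overlap, which their choice by likeness to Gimap4 made nearly certain. All Cre-ERT2 arrays lay above all ERT2 arrays in 17.5% of all genes.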

How the data were processed

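The 6 samples of total RNA were labelled with biotin for Affymetrix arrays, per the labels' protocols. The deposited values are 1 intensity for each probe set on each array, from 6.27 to 26714. The authors made them with RMA, which corrects background, quantile-normalizes arrays and summarises each probe set, per the submitters' processing notes. Its version and the genome build are not stated in the labels. RMA gives log2 values, whereas the deposited intensities are linear, so log2(intensity + 1) was computed here; this slightly understates the change of dim probe sets. Quantile normalization would hide a change shared by nearly all genes.

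Of 35556 probe sets the probe table names 1 gene for 21789, several for 1621 and none for 12146. Where a gene had several, the probe set brightest on average over the 6 arrays was used. Groups were compared with limma 3.58.1 in R 4.3.3 (lmFit, eBayes without a trend, no covariates). The p-values were adjusted by the method of Benjamini and Hochberg across the 35556 probe sets, and calls were made at 0.05. Errors of differences are limma's moderated SEs. On simulated data for this comparison, with 200 of 35556 probe sets changed, the calling recovered 0% of log2 changes of 0.25, 52% of 0.5, 86% of 1 and 100% of 2, with 4.8% false calls. In the data 1143 probe sets were called higher and 1009 lower, many more than the simulation changed. Its recovery rates therefore do not carry over to these data, where Bcl2 was called at a log2 difference of 0.25. The number of arrays limits the precision.

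The members, the gene lists and the tests were chosen with earlier results of these data known. Named were the members, Sox4, the called genes among the neighbours, up to 3 called genes of each list by smallest p, and the 5 genes most like Gimap4; any further gene was picked with its values in view. Promoters are those of RefSeq (GRCm38.p6); all 8 members matched. Of the listed genes not measured by a probe set of 1 gene, none was analysed here. The alternatives changed the variance model (trend, robust), the probe sets tested (those brighter than the median, those of 1 gene, gene means), the scaling (median centring, quantile, cyclic loess), the weighting of arrays, the blocking by replicate number or the pseudocount (16), or left out each array in turn.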

Additional observations from a re-analysis of the deposited data

How the results depend on the processing

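The differences of the 8 members kept their direction under all 17 alternatives, except that of Gimap1, which lay between -0.05 and 0.02. Estimated array weights gave 2415 probe sets higher and 1612 lower, against 1143 and 1009. Leaving out arrays gave 606 to 1319 higher and 654 to 883 lower. The number of members called higher was 3 to 5 when an array was left out. The number called lower was 1, Gimap5, among the probe sets brighter than the median, under cyclic loess, with only probe sets of 1 gene and when gene means were tested. The median difference of the members was 0.43 among the brighter probe sets (where Gimap3 was left out), 0.45 after a further quantile normalization, 0.45 under cyclic loess and 0.50 with array weights, and 0.43 to 0.53 when an array was left out. Of the neighbouring genes 2 were lower after a further quantile normalization, under cyclic loess, with array weights and with only probe sets of 1 gene. The cause was not tested, other than that fewer probe sets or arrays entered some fits.

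Deviations of same-numbered samples from their group means correlated with r of 0.20, 0.34 and -0.05. For differently numbered samples r lay between -0.43 and 0.33. With 3 arrays per group these values cannot show whether same-numbered samples shared a culture or batch. With the replicate number as a block 959 probe sets were higher and 877 lower, and 4 members were called higher, without Gimap9. Lrrc61 and Bcl2 also lost their calls under the block (limma adjusted p of 0.0678 and 0.0704). Arrays carry no counts, so signal over background, which the deposited table does not give, limits dim genes such as Gimap3.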
